A study of Rattus norvegicus with 4 samples.

Results

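The genes described here are 10 receptors of natural killer (NK) cells and some T cells: the Ly49 receptors Klra22, Ly49i4, Ly49s5, Ly49s6 and Ly49s7, and the killer cell lectin-like receptors Klrb1a, Klrb1b, Klrb1c, Klre1 and Klri2. They were selected on measured values of the same libraries, by their expression in lymphocytes, and were found by gene symbol. The files hold 9 of the 10 symbols, among 22118 symbols in all, and Klrb1b was not analysed here. The 5 Ly49 genes are called the Ly49 group, and the 4 measured others the Klr group. Because their presence in NK and T cells chose them, their levels are given as a description.

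Ly49 receptors are C-type lectin-like proteins that bind MHC class I molecules on other cells. Receptors with an i in the name carry an inhibitory tail motif that recruits the phosphatase Shp-1 (Ptpn6), whereas those with an s pair with the adaptor Dap12 (Tyrobp) and stimulate the cell. Each NK cell is known to use its own subset of the family, so that neighbouring NK cells carry different receptors. Klrb1a encodes NKR-P1A, the stimulatory receptor long used as a surface marker of rat NK cells, and Klrb1c is listed by RefSeq under the synonym NKR-P1F. Klre1 forms heterodimers with Klri1, which inhibit, and with Klri2, which activate. In liver, NK cells and tissue-resident innate lymphocytes are a large part of the lymphocytes, and T cells that carry NK receptors are also found there.

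Cells came from the livers of Lewis rats, in 4 groups with 1 single-cell RNA library each. The group NEVLPcty was perfused outside the body for 4 h at 37 °C with IL-10 and TGF-β, NEVLP2 was perfused in the same way without the cytokines, CS was kept for 4 h at 4 °C, and naive was untreated. The perfusate was William's E medium with albumin, heparin, papaverine, insulin, hydrocortisone and leukoreduced red cells of Lewis rats. The digit in NEVLP2 and the way cells were isolated are not given in the sources used here. With 1 library a group there is no replicate and no test, and treatment, animal and preparation cannot be told apart in any comparison below.

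NK cells were taken as cells with at least 1 Ncr1 count and no Cd3e count, and T cells as cells with at least 1 Cd3e count, where a count is a unique molecular identifier (UMI). Of 10537, 9356, 9865 and 3213 cells retained in NEVLPcty, NEVLP2, CS and naive, 196, 201, 286 and 167 were NK cells, and 119, 212, 177 and 324 were T cells. NK cells fell in clusters with NK markers for 88.1 to 95.9% of cells. T cells fell in the T-like cluster for 78.2% in NEVLPcty, 61.8% in NEVLP2, 82.5% in CS and 89.8% in naive, and 84.0, 70.8, 88.1 and 91.7% of them also had a Cd3d or Cd3g count. Summed Kupffer cell markers in T cells stood at 69.1, 848, 1135 and 40.1 counts per 1000000 counts (CPM), and hepatocyte markers at 540, 1736, 347 and 817 CPM, so T cells of NEVLP2 carried the most transcripts of hepatocytes. Median UMIs per NK cell were 4777.5 in NEVLPcty, 5122 in NEVLP2, 4328.5 in CS and 8844 in naive, and per T cell 7088, 7188.5, 6396 and 9306.5. Pairs of libraries shared 11 to 35 cell barcodes.

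All 10 genes lie on chromosome 4 in the RefSeq annotation of the rat assembly GRCr8, in the natural killer gene complex. The windows around the annotated starts of the 5 Ly49 genes are shown to compare genes of the same family. They run from 250 bases before to 50 after the start, on the minus strand, from RefSeq on GRCr8. Reads of close copies can be shared between genes, but the windows lie mostly before the start and identity of the transcripts was not measured. Capitals mark the longest run of bases, 14 long, that Klra22, Ly49s5, Ly49s6 and Ly49s7 have in common.
Klra22 (chr4:165742976-165743275): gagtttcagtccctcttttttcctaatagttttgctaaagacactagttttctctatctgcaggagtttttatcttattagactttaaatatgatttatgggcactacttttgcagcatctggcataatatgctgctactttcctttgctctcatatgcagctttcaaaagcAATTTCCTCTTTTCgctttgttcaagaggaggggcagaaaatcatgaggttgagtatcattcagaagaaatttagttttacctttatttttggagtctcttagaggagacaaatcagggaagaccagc
Ly49i4 (chr4:165873557-165873856): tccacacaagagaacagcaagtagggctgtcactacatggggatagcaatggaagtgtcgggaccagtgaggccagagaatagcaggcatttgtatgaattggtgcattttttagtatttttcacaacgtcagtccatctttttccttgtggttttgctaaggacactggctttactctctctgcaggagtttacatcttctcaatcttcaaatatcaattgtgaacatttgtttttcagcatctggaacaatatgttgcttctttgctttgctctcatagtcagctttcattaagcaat
Ly49s5 (chr4:165645467-165645766): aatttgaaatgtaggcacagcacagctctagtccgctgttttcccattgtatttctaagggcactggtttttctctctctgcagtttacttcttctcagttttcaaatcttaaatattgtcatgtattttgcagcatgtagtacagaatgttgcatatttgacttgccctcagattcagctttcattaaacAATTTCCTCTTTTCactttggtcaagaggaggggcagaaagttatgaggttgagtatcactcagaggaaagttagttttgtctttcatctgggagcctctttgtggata
Ly49s6 (chr4:165790021-165790320): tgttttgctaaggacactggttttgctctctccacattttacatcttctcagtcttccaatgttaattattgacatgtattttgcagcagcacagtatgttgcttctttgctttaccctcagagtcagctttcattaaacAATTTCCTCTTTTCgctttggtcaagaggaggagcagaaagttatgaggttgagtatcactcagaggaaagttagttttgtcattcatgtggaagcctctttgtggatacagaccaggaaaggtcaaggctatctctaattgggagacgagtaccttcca
Ly49s7 (chr4:166511244-166511543): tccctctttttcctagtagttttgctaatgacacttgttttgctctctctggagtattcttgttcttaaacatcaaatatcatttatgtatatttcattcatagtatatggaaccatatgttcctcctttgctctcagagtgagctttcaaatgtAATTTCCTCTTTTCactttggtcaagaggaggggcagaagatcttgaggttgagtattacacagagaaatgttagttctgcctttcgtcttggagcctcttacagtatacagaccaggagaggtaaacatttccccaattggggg

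Over aligned bases, with gaps left out, the windows were 68.8% identical between Klra22 and Ly49i4, the lowest of the 10 Ly49 pairs, and 90.4% between Ly49s5 and Ly49s6, the highest. The windows of Klrb1a and Klrb1c, which encode another branch of the family, were 71.5% identical to each other. Pairs of a Ly49 window with one of the remaining receptors ran from 63.8% (Ly49s7 with Klrb1a) to 77.7% (Ly49s7 with Klre1). The lower Ly49 values therefore do not set those pairs apart from the rest. The run in capitals ended 64 bases before the annotated start in Klra22, 45 in Ly49s5, 96 in Ly49s6 and 81 in Ly49s7. It was found in 10 of 33469 promoter windows on either strand, and the others that RefSeq names by symbol were Klra1, Klra17, Ly49s8 and Ly49si1. The letters AGGAAA hold the GGAA core of Ets factors. They occurred on either strand in all 5 Ly49 windows and in those of Klrb1a and Klri2, and in 30.5% of all promoter windows. The run in capitals holds them on the other strand (TTTCCT), so Klra22, Ly49s5, Ly49s6 and Ly49s7 share that occurrence. The Runx letters TGTGGT occurred in Ly49i4 and Klri2, and in 17.3% of all windows. Ly49s7 lies within the span of Klra5 in this annotation, and the sources used here do not say how counting divided such overlapping genes. Levels of single Ly49 genes are uncertain as far as reads were shared among copies, which was not tested.

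In NK cells the Ly49 group was lowest in NEVLPcty and highest in naive. The 5 genes together stood at 123 CPM in NEVLPcty (95% interval 102 to 148), 372 in NEVLP2 (337 to 411), 402 in CS (371 to 436) and 613 in naive (574 to 654). Intervals here are exact Poisson intervals for a level, exact conditional binomial for a ratio and exact binomial for a share, and cover counting error only. The intervals of NEVLP2 and CS overlapped, and those of NEVLPcty and naive lay apart from both. The log2 ratio was -1.60 for NEVLPcty over NEVLP2 (-1.91 to -1.29), -0.72 for NEVLP2 over naive (-0.89 to -0.55) and -0.61 for CS over naive (-0.76 to -0.46). After each cell was thinned to 2000 UMIs, 11.1% of NK cells in NEVLPcty, 23.1% in NEVLP2, 26.8% in CS and 31.7% in naive had a count of any Ly49 gene, against 12.2, 24.9, 31.5 and 37.1% before thinning. The thinned shares left out 34, 54, 66 and 6 shallower NK cells. The order of the libraries was the same in level and in share. In the same order, summed hepatocyte markers in NK cells stood at 395, 903, 518 and 317 CPM and Kupffer cell markers at 120, 580, 649 and 9.31 CPM, and their part in the differences was not tested.

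**Figure D1:**
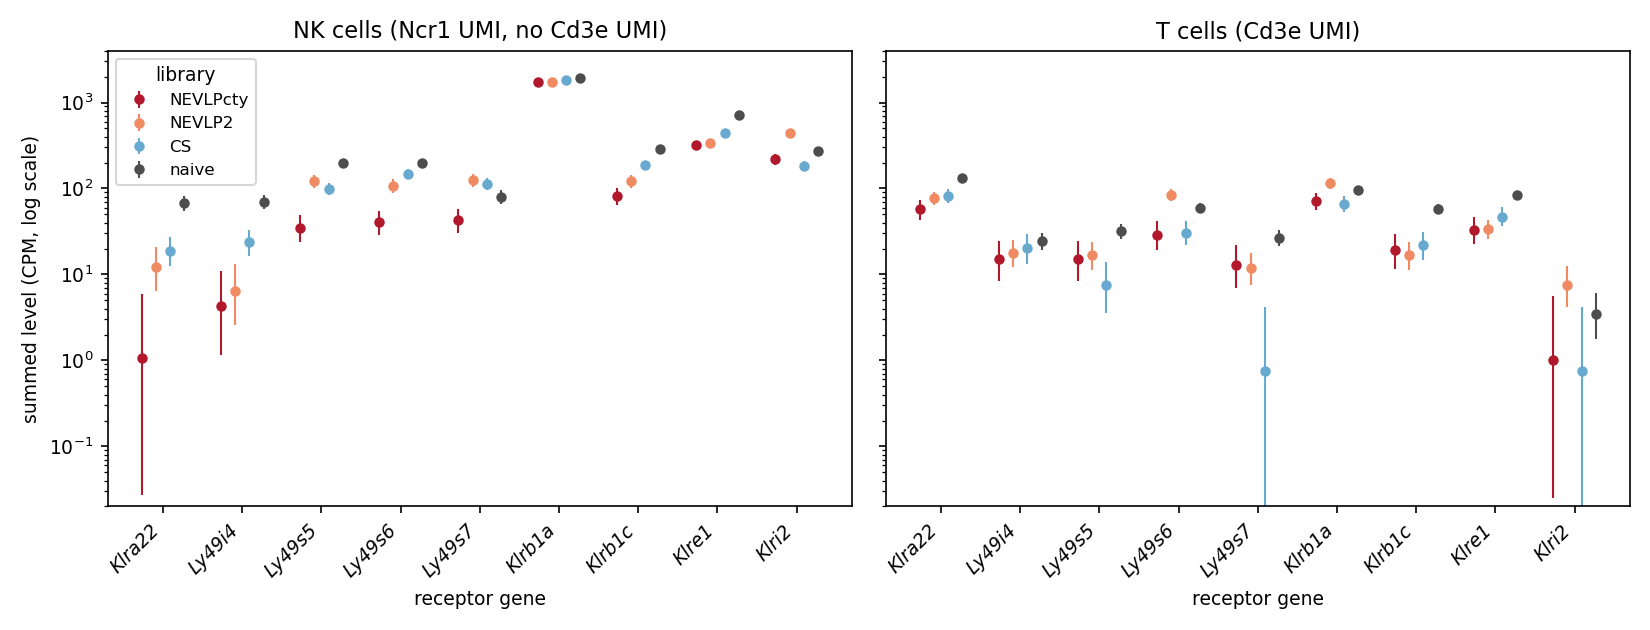
Summed level of each receptor gene in NK cells (left) and T cells (right) of each library, in CPM on a log scale; points are the level and bars the exact Poisson 95% interval. In NK cells the points of NEVLPcty lie lowest for all 5 Ly49 genes, while Klrb1a lies between 1723 and 1918 CPM in all 4 libraries.

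Like the group, the stimulatory genes Ly49s5 and Ly49s6 were lowest in NEVLPcty and highest in naive, with CS above NEVLP2 for Ly49s6 but not for Ly49s5. Ly49s5 had 35.0 CPM in NEVLPcty, 122 in NEVLP2, 99.1 in CS and 198 in naive NK cells, and Ly49s6 had 40.3, 107, 148 and 197 CPM. Both were lower in NEVLPcty than in NEVLP2, by log2 ratios of -1.80 (-2.39 to -1.24) and -1.40 (-1.97 to -0.86). Ly49s7, also of the stimulatory type by its name, had another order: 42.5 CPM in NEVLPcty, 125 in NEVLP2, 113 in CS and 79.8 in naive. In gated NK cells it was the Ly49 gene whose level in NEVLP2 and CS lay above naive, with log2 ratios of 0.65 (0.29 to 1.02) and 0.51 (0.16 to 0.86). Over all cells of the NK-like clusters, gated or not, NEVLP2, CS and naive were near level and NEVLPcty stayed lower. There Ly49s7 had 47.8 CPM in NEVLPcty (38.6 to 58.6), 133 in NEVLP2 (116 to 151), 130 in CS (113 to 150) and 123 in naive (107 to 141). The inhibitory Ly49i4 had 4.25 CPM (4 counts) in NEVLPcty, 6.50 (7 counts) in NEVLP2, 23.6 in CS and 69.8 in naive, where 1 cell held 34 of its 105 counts. Klra22, which RefSeq also lists as Ly49s2, had 1.06 CPM (1 count) in NEVLPcty, 12.1 in NEVLP2, 18.9 in CS and 67.8 in naive, where 1 cell held 37 of 102 counts. For both genes the log2 ratio of NEVLP2 over naive was far from 0 in gated cells, at -3.42 (-4.77 to -2.33) for Ly49i4 and -2.49 (-3.45 to -1.65) for Klra22. Few cells carried them: 5 and 3 NK cells in NEVLP2, against 17 and 11 in naive. Over all cells of the NK-like clusters, which also hold cells outside the gate, the gap was smaller. There Ly49i4 had 25.1 CPM in NEVLP2 (42 counts) and 66.1 in naive, and Klra22 had 29.8 (50 counts) and 83.4.

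In the Klr group, Klrb1a was near the same level in NK cells of all libraries: 1729 CPM in NEVLPcty, 1723 in NEVLP2, 1843 in CS and 1918 in naive. The log2 ratio of NEVLPcty over NEVLP2 was 0.01 (-0.09 to 0.10), and thinned shares of NK cells with a Klrb1a count were 89.5, 79.6, 91.8 and 94.4%. Klrb1c had 81.7, 123, 186 and 288 CPM and Klre1 had 319, 337, 445 and 724 CPM in NEVLPcty, NEVLP2, CS and naive. Both were highest in naive, with log2 ratios of NEVLP2 over naive of -1.23 (-1.52 to -0.95) and -1.10 (-1.28 to -0.93). The intervals of Klre1 in NEVLPcty (283 to 357) and NEVLP2 (303 to 374) overlapped. Klri2 stood out in NEVLP2, at 443 CPM, against 218 CPM in NEVLPcty, 184 in CS and 276 in naive. Its log2 ratio was -1.03 for NEVLPcty over NEVLP2 (-1.27 to -0.79), 1.27 for NEVLP2 over CS (1.05 to 1.49) and 0.68 for NEVLP2 over naive (0.49 to 0.87). The thinned share of NK cells with a Klri2 count was 24.1% in NEVLPcty, 29.3% in NEVLP2, 20% in CS and 26.7% in naive, with intervals that overlapped. Without thinning the shares were 28.6, 26.9, 23.4 and 40.7%, with 3.66, 8.83, 4.07 and 6.12 counts per positive cell. Counts per positive cell were thus highest in NEVLP2, but they also follow the depth of the cells. The 5 highest cells held 30.2, 25.6, 19.8 and 17.3% of the Klri2 counts in that order.

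Read against all genes with at least 10 counts in a comparison, the receptors were mostly on the lower side in NK cells. For NEVLPcty over NEVLP2, 5 of the 9 genes were at least 2-fold lower and 0 higher, where 6.05% of all genes were lower and 13.8% higher; the median log2 ratio was -1.03 over the receptors and 0.19 over all genes. For NEVLP2 over CS, 1 gene was higher (7.63% of all genes) and 1 lower (23%), with medians of -0.40 and -0.25. For NEVLP2 over naive, 0 were higher (13.8%) and 4 lower (17.3%), with medians of -0.89 and -0.07. For CS over naive, 0 were higher (13.2%) and 2 lower (3%), with medians of -0.63 and 0.18. These comparisons share libraries, and the genes were chosen from the same data. Because the median of all genes departed from 0, scaling by median-of-ratios size factors moved the Ly49 group of NEVLP2 over CS to 0.13, against -0.11 (-0.30 to 0.07), so the order of these libraries turned with the scaling.

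NK cells fell into 2 main clusters, built with every Klr and Ly49 gene left out of the genes that made them. Cluster 9 was led by Gzmk, Gzmbl3, Nkg7, Klrg1 and Gzmb, and cluster 8 by Xcl1, which encodes a chemokine, Prf1, Gzma, Faslg and Gzmm. Granzymes led in both, and Gzmm, Prf1 and Nkg7 were among the 10 leading genes of both clusters. Cluster 9 held 18.9% of NK cells in NEVLPcty, 42.8% in NEVLP2, 36.7% in CS and 56.3% in naive. Cluster 8 held 77.0, 45.3, 57.0 and 39.5%. The Ly49 group stood higher in cluster 9 in each library: 310 CPM against 59.2 CPM in cluster 8 in NEVLPcty, 536 against 183 in NEVLP2, 631 against 229 in CS and 743 against 454 in naive. The ratio of cluster 9 over cluster 8 was 5.24 in NEVLPcty, 2.92 in NEVLP2, 2.76 in CS and 1.64 in naive. Median UMIs were 6265, 6923, 6971 and 9618.5 in cluster 9 and 3602, 2096, 3085 and 7705 in cluster 8. After thinning, 32.4, 35.7, 42.2 and 43.6% of cells in cluster 9 had a Ly49 count, against 5.13, 6.38, 15.4 and 16.4% in cluster 8.

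**Figure D2:**
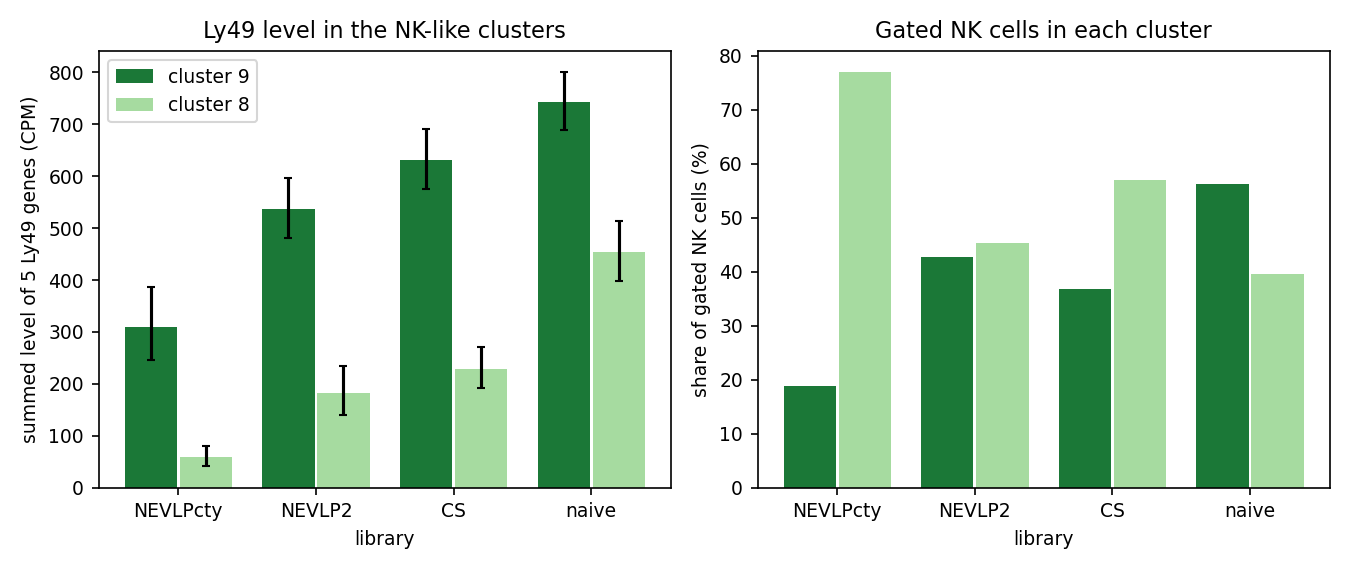
Left, summed level of the 5 Ly49 genes in gated NK cells of clusters 9 and 8 in each library, in CPM with exact Poisson 95% intervals; right, share of gated NK cells in each cluster. The level in cluster 9 exceeds that in cluster 8 in every library, and NEVLPcty is lowest in both clusters.

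The order of the libraries also held within the clusters. NEVLPcty over NEVLP2 was -0.79 on the log2 scale in cluster 9 (-1.16 to -0.43) and -1.63 in cluster 8 (-2.25 to -1.03). NEVLP2 over naive was -0.47 in cluster 9 (-0.66 to -0.28) and -1.31 in cluster 8 (-1.73 to -0.90), and CS over naive was -0.24 (-0.41 to -0.06) and -0.99 (-1.30 to -0.68). The difference between libraries was thus present in both clusters and smaller in cluster 9, although the difference between clusters itself has no test. Among gated NK cells, Ly49s7 was higher in NEVLP2 and in CS than in naive in both clusters. NEVLP2 over naive was 0.49 (0.09 to 0.89) in cluster 9 and 2.01 (1.01 to 3.11) in cluster 8. CS over naive was 0.53 (0.15 to 0.92) and 1.67 (0.72 to 2.73). Klre1 was also lower in NEVLP2 than in naive in both, by -0.97 (-1.19 to -0.75) in cluster 9 and -1.02 (-1.31 to -0.73) in cluster 8. Klri2 was higher in NEVLP2 than in naive in both, by 0.81 (0.57 to 1.04) and 0.79 (0.44 to 1.14). Unlike the Ly49 group, Klri2 differed little between clusters, with a ratio of cluster 9 over cluster 8 between 0.99 and 1.24.

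In T cells the Ly49 group stood at 129 CPM in NEVLPcty (108 to 154), 207 in NEVLP2 (187 to 229), 141 in CS (121 to 162) and 276 in naive (259 to 294). NEVLPcty and CS overlapped, NEVLP2 lay above them, and naive was highest in summed level. By thinned share of T cells with a Ly49 count NEVLP2 was highest, at 12.3% in NEVLPcty, 17.6% in NEVLP2, 9.04% in CS and 14.0% in naive, with intervals that overlapped between NEVLP2 and naive. The log2 ratio of NEVLP2 over naive, -0.42 (-0.59 to -0.24), turned to 0.20 with thinned cells and to 0.22 with each cell weighted equally, so its direction depended on how cells were weighted. Nearly all of these counts came from T cells with a count of Cd8a or Cd8b, the chains of the CD8 coreceptor: 97.7% in NEVLPcty, 84.3% in NEVLP2, 98.4% in CS and 98.6% in naive. Those cells were 34 of 119, 89 of 212, 48 of 177 and 108 of 324 T cells. In them the Ly49 group stood at 380 CPM (316 to 452), 401 (358 to 447), 508 (438 to 587) and 703 (659 to 750) in NEVLPcty, NEVLP2, CS and naive, and in the remaining T cells at 4.50, 57.3, 3.09 and 6.11 CPM. Among CD8 cells the order of the libraries by summed level was then the same as in NK cells. Intervals overlapped between NEVLPcty and NEVLP2 and between NEVLP2 and CS. The order by share was another: without thinning, 55.9% of CD8 cells in NEVLPcty had a Ly49 count, 43.8% in NEVLP2, 43.75% in CS and 47.2% in naive. T cells in or out of the T-like cluster matter for NEVLPcty and NEVLP2, where 66.7 and 75.7% of the Ly49 counts of T cells lay inside it, against 99.5% in CS and 89.8% in naive. Rat NK cells can also carry CD8 alpha, and 1, 9, 1 and 6 T cells had an Ncr1 count.

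In CD8 T cells, Klra22 had 172 CPM in NEVLPcty (130 to 223), 133 in NEVLP2 (109 to 160), 297 in CS (244 to 358) and 341 in naive (310 to 373). Its counts lay in 50% of these cells in NEVLPcty, 20.2% in NEVLP2, 33.3% in CS and 36.1% in naive. Over all T cells Klra22 had 57.1, 76.6, 81.7 and 134 CPM, and the thinned share of T cells with a count was 5.26, 10.4, 7.23 and 9.87%. Ly49s6 had 29.1, 83.7, 30.7 and 59.7 CPM over all T cells and was highest in NEVLP2, where 91.0% of its counts lay in CD8 cells. Ly49i4 had 15.0, 17.8, 20.2 and 24.2 CPM, with intervals that overlapped. Ly49s5 had 15.0, 16.7, 7.49 and 31.7 CPM. Ly49s7 had 13.0, 11.9, 0.75 (1 count) and 26.5 CPM, but in naive 1 cell held 50 of its 92 counts, and only 34.8% of the counts lay in the T-like cluster.

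Of the Klr group, Klrb1a had 71.1 CPM in T cells of NEVLPcty, 114 in NEVLP2, 65.9 in CS and 95.1 in naive. Of its counts in NEVLP2, 56.6% lay in the T-like cluster, against 97.7% in CS. Klrb1c had 19.0, 16.7, 21.7 and 57.6 CPM and Klre1 had 33.1, 33.5, 47.2 and 84.4 CPM, and both were highest in naive T cells, as in NK cells. Klri2 had 1 count in NEVLPcty, 14 in NEVLP2, 1 in CS and 12 in naive, in 1, 3, 1 and 3 cells. B-like and hepatocyte-like cells should lack these receptors. They had a count of any 1 gene in at most 2.33% of thinned cells, for Klrb1a, and at most 1.16% for a Ly49 gene. For Klri2 and Ly49s7 alone the highest such shares were 0.296 and 0%. Thinned shares of T cells were 0 to 1.04% for Klri2, and 0.52% in NEVLP2 and 0% in CS for Ly49s7. Those shares rest on few cells and are read with caution. In T cells of NEVLP2, 1 cell held 12 of 14 Klri2 counts and 1 cell held 12 of 22 Ly49s7 counts.

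For T cells, 0 of the 9 receptors were at least 2-fold higher in NEVLPcty over NEVLP2 (8.19% of all genes) and 2 were lower (11.9%). In NEVLP2 over CS, 4 were higher (13%) and 0 lower (17.3%), and 2 of those 4, Ly49s7 and Klri2, rest on 1 count in CS. In NEVLP2 over naive, 1 was higher (20.5%) and 3 were lower (14.7%), and in CS over naive 0 were higher (13%) and 4 lower (4.76%). The CD8 share of T cells was 28.6% in NEVLPcty, 42.0% in NEVLP2, 27.1% in CS and 33.3% in naive. For NEVLP2 over CS it was higher, as were hepatocyte markers, while Kupffer cell markers were lower, and their part in the differences was not tested.

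Set against T cells of the same library, 6 receptors were higher in NK cells in all 4 libraries with intervals that stayed above 0: Klrb1a, Klrb1c, Klre1, Klri2, Ly49s5 and Ly49s7. Ly49s6 was higher in CS and naive, and its intervals held 0 in NEVLPcty and NEVLP2. The log2 ratio of NK over T cells for Klrb1a was 4.6 in NEVLPcty, 3.91 in NEVLP2, 4.81 in CS and 4.33 in naive. For Klre1 it was 3.27, 3.33, 3.24 and 3.10, and its intervals overlapped among all libraries. The ratio of Klri2 was the largest in each library, at 7.76, 5.87, 7.94 and 6.32, with 1 count in T cells of NEVLPcty and of CS, and Ly49s7 in CS, at 7.24, also rests on 1 count in T cells. Klra22 went the other way and was lower in NK cells than in T cells in each library, with ratios of -5.75 (-11.1 to -3.21), -2.67 (-3.61 to -1.85), -2.11 (-2.77 to -1.50) and -0.98 (-1.30 to -0.67). Ly49i4 had no common direction: -1.82 in NEVLPcty, -1.45 in NEVLP2, 0.22 in CS and 1.53 in naive, and in NEVLP2 only 33.3% of its T cell counts lay in the T-like cluster.

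**Figure D3:**
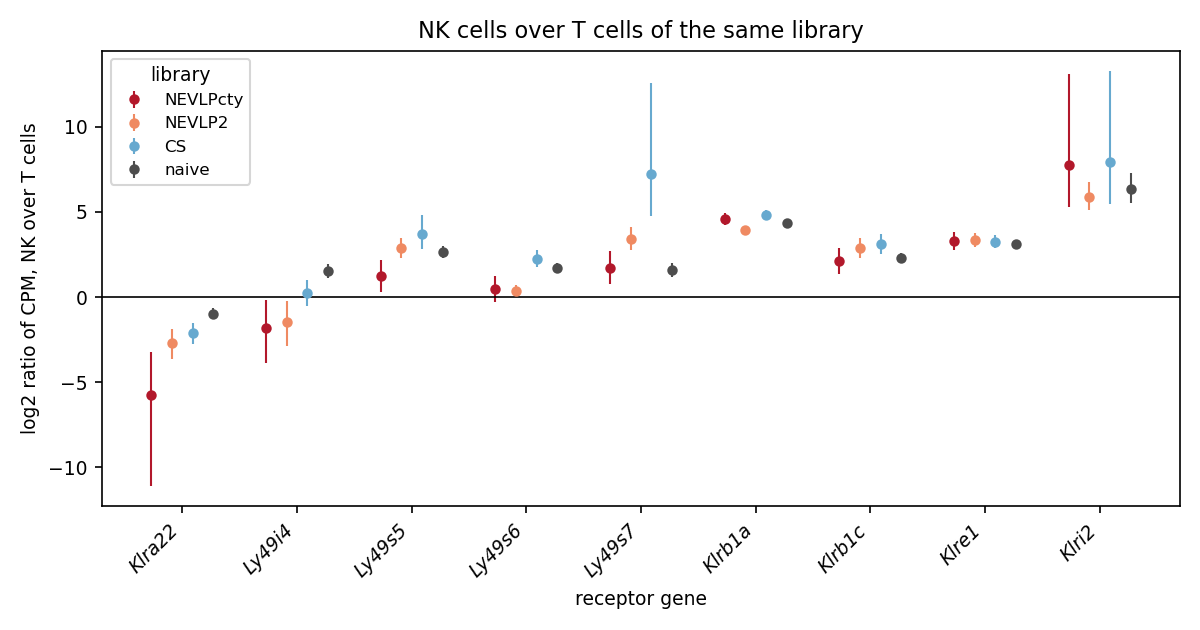
Log2 ratio of CPM of NK cells over T cells within each library for each receptor gene, with exact conditional binomial 95% intervals. Klra22 lies below 0 in all 4 libraries and the Klr group above 0 in all 4.

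As a group, the Ly49 genes were 0.95 times as high in NK cells as in T cells of NEVLPcty (log2 -0.07, -0.44 to 0.30), 1.80 times in NEVLP2, 2.86 times in CS and 2.22 times in naive. The log2 value of NEVLP2, 0.85, was 0.058 with each cell weighted equally and 0.26 with thinned cells, and that of NEVLPcty was 0.90 with whole clusters in place of the gates. At least 2-fold higher in NK cells were 6 receptors in NEVLPcty (20% of all genes), 6 in NEVLP2 (11%), 7 in CS (15.6%) and 8 in naive (16.2%). At least 2-fold lower were 2 in NEVLPcty (9.58%), 2 in NEVLP2 (13%), 1 in CS (6.47%) and 0 in naive (8.75%). Since the genes were chosen for their place in these cells, nothing is read from those counts. CD8 T cells, a part of the T cells, held the Ly49 group at or above the level of all gated NK cells in each library, with intervals that overlapped in NEVLP2: 380 against 123 CPM in NEVLPcty, 401 against 372 in NEVLP2, 508 against 402 in CS and 703 against 613 in naive. NK cells of cluster 9 alone had 310, 536, 631 and 743 CPM in that order, below CD8 T cells in NEVLPcty and above them in NEVLP2, CS and naive. Those intervals lay apart only in NEVLP2.

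Within NK cells, counts of different Ly49 genes met in the same cells more often than the product of their shares. Over 690 thinned NK cells, 35 had both Ly49s5 and Ly49s6, where the product of the shares within each library gives 12.1 cells. For Ly49s5 with Ly49s7 there were 29 cells against a product of 8.23, and for Ly49s6 with Ly49s7 27 against 7.62, each above the product in 4 of 4 libraries. NK cells with counts of 2 or more Ly49 genes made up 6.79% in NEVLPcty, 8.84% in NEVLP2, 12.3% in CS and 13.7% in naive, against products of 1.26, 3.85, 5.99 and 7.93%. Most Ly49-positive NK cells of NEVLPcty had more than 1 gene (11 of 18 cells), against 13 of 34 in NEVLP2, 27 of 59 in CS and 22 of 51 in naive. Joint detection of close copies also includes reads that counting may have divided between them, and that part was not tested. The products were taken over both NK clusters, although Ly49 counts lay more in cluster 9 than in cluster 8. The part of that mixture in these pairs was not tested either.

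The Klr group did not pair with the Ly49 genes in 1 pattern. Klri2 met Ly49s5 in 44 NK cells against a product of 22.3, Ly49s6 in 37 against 20.4 and Ly49s7 in 28 against 15.0, each above the product in 4 of 4 libraries. Klrb1a, which nearly every NK cell carried, met Ly49s5 in 82 cells against 80.5. Klre1 met Ly49s5 in 48 cells against 48.2 and Klri2, its heterodimer partner, in 89 against 85.6, so neither departed from the product. In T cells Klrb1a, Klrb1c and Klre1 met Klra22 above the product: of 787 thinned T cells, 34 had Klra22 and Klrb1a against 6.76, 25 had Klra22 and Klre1 against 5.10, and 24 had Klra22 and Klrb1c against 4.13. Klra22 and Ly49s6 met in 31 T cells against 5.47. T cells with 2 or more Ly49 genes made up 4.39, 9.33, 2.41 and 7.96% in NEVLPcty, NEVLP2, CS and naive, against products of 1.17, 2.92, 0.53 and 1.82%. The Ly49 counts of T cells lay mostly in CD8 cells, and the part of that mixture in these pairs was not tested.

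**Figure D4:**
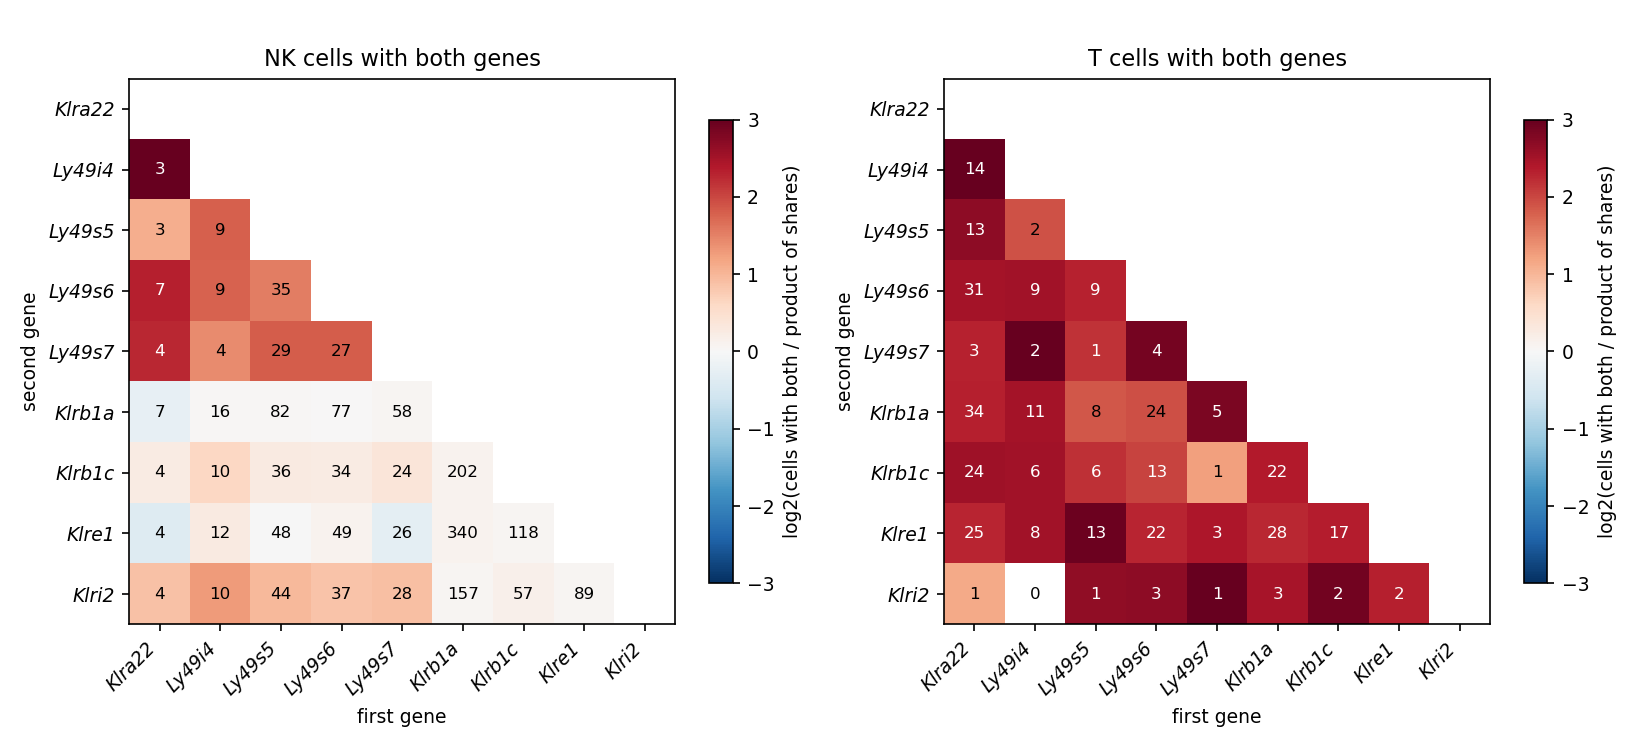
Number of thinned NK cells (left) and T cells (right) with counts of both genes of a pair, summed over the 4 libraries; colour is the log2 ratio to the product of the shares within each library, on a scale that ends at -3 and 3. In NK cells pairs such as Ly49s5 with Ly49s6 (35 cells against a product of 12.1) stand above the product while Klrb1a with Ly49s5 (82 against 80.5) does not; in T cells Klra22 with Klrb1a (34 against 6.76) does.

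NK cells with a Ly49 count after thinning (18 in NEVLPcty, 34 in NEVLP2, 59 in CS and 51 in naive) were compared with those without (144, 113, 161 and 110). Of 3115 genes with at least 10 counts in each library, 4 were at least 2-fold higher in the Ly49-positive cells in all 4 libraries (0.128%) and 9 at least 2-fold lower (0.289%). The 4 higher ones were Lag3, which encodes an inhibitory receptor, Gzmk, which encodes granzyme K, Auh and Rab29. Lag3 had 556 CPM in Ly49-positive against 55.6 in Ly49-negative cells of NEVLPcty, 368 against 146 in NEVLP2, 475 against 165 in CS and 304 against 141 in naive. Gzmk had 6889 against 2288 CPM, 8191 against 4088, 4449 against 2081 and 4618 against 2118 in the same libraries. The largest difference on the lower side was in Il2ra: 27.8 against 365 CPM in NEVLPcty, 14.7 against 323 in NEVLP2, 8.47 against 134 in CS and 29.4 against 86.4 in naive. Of the other 8 lower genes, those named by size were Cd74, the invariant chain of MHC class II, Itm2c, Rab11fip1, Grn, Art2b, Sema6d and Fbxo11. In positive cells Il2ra rests on 1, 1, 1 and 3 counts.

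**Figure D5:**
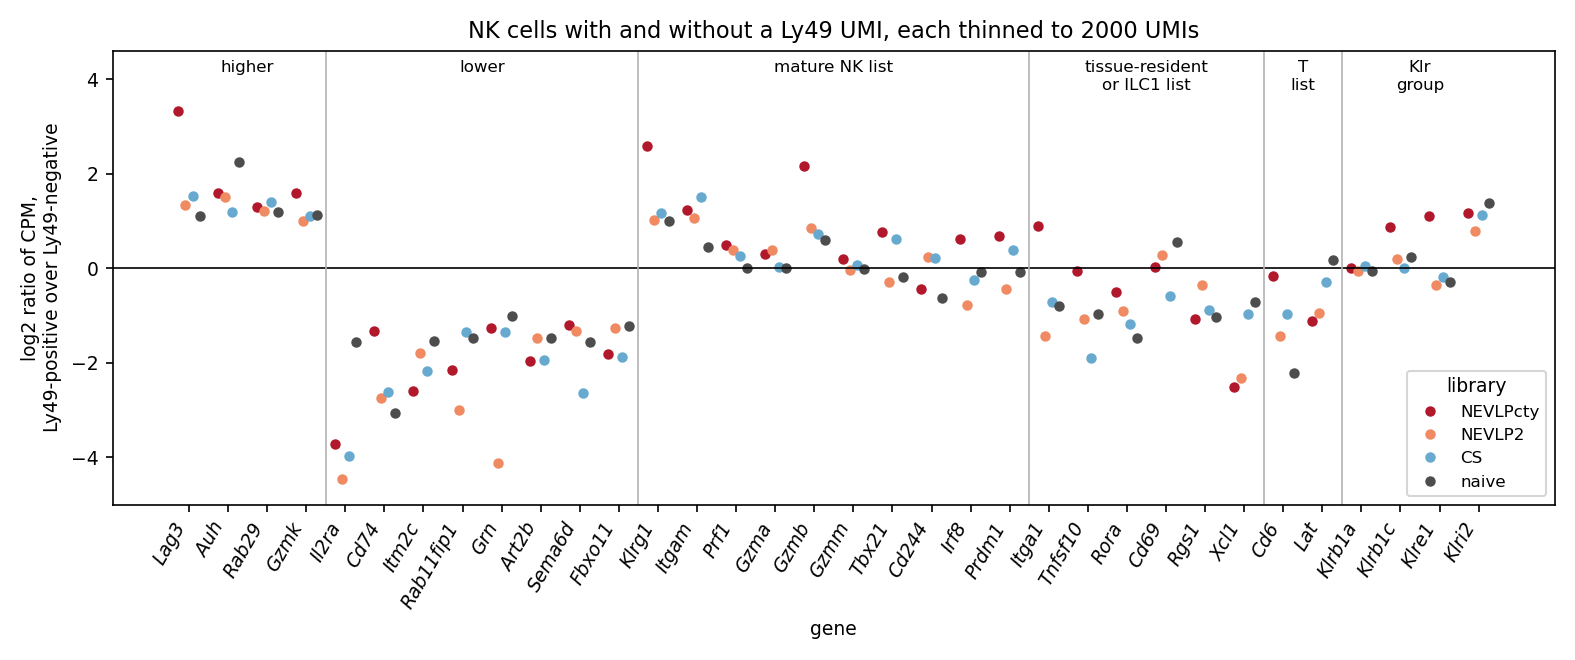
Log2 ratio of CPM in Ly49-positive over Ly49-negative NK cells, thinned to 2000 UMIs, in each library, for the 4 genes at least 2-fold higher and 8 of the 9 at least 2-fold lower in all 4 libraries, for 3 gene lists and for the Klr group; Il2ra belongs to the tissue-resident list and is drawn among the lower genes. Klri2 lies above 0 in all 4 libraries and Klrb1a near 0.

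Gene lists of NK cell states were read beside these. Of 16 genes of mature NK cells, 10 had enough counts, and 4 of them were higher in the Ly49-positive cells of all 4 libraries: Klrg1, an inhibitory receptor of mature cells, Itgam, Gzmb and Gzma. Of the others, Prf1 was higher in 3 libraries, Gzmm, Tbx21, Cd244 and Prdm1 in 2 and Irf8 in 1. None of the 10 was at least 2-fold higher in all 4, and Gzma was nearly level in CS (8186 against 7994 CPM) and naive (5853 against 5845 CPM). Of 18 genes of tissue-resident cells or type 1 innate lymphoid cells, 7 had enough counts, and 5 were lower in all 4: Tnfsf10, Il2ra, Rora, Rgs1 and Xcl1. From the same list, Cd69 was higher in 3 libraries and Itga1 in 1, NEVLPcty. The median over genes of the mean log2 ratio of the libraries was 0.20 for the first list and -1.0 for the second. Over all 3115 genes it was -0.10, and 238 of them were higher and 397 lower in all 4 libraries. The median of the second list is the value of Tnfsf10. That gene had 0 counts in positive cells of NEVLPcty and NEVLP2, where a floor of 3 counts was used. Of 9 T cell genes, 2 had enough counts and none was higher in all 4 libraries. Among the receptors, Klri2 was higher in Ly49-positive cells of all 4 libraries, at 389 against 174 CPM in NEVLPcty, 676 against 394 in NEVLP2, 297 against 137 in CS and 402 against 155 in naive, while Klrb1a had a mean log2 ratio of -0.02. Ly49-positive cells lay in cluster 9 for 66.7, 88.2, 72.9 and 80.4%, against 17.4, 47.8, 36.6 and 48.2% of Ly49-negative cells, and the part of the clusters in these differences was not tested.

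Outside NK and T cells, most Ly49 genes were near 0. NK-like and T-like clusters held 93.1 to 97.4% of all counts of Klra22, Ly49i4, Ly49s5 and Ly49s6, but 50.5% of those of Ly49s7. Most of its other counts lay in Kupffer-like cells, that is liver-resident macrophages, at 8.52 CPM in NEVLPcty, 5.62 in NEVLP2, 18.7 in CS and 81.0 in naive. Within them, 1 cluster of CS and naive cells held it at 59.7 CPM in CS (52.8 to 67.2) and 115 CPM in naive (97.0 to 135), with a count in 35.8 and 59.7% of its cells. A cluster without a name held it at 9.15 CPM in CS and 19.7 in naive, and conventional dendritic-like cells at 2.11 CPM in NEVLPcty and 2.39 in NEVLP2. Whether the Kupffer-like counts are Ly49s7 or the overlapping Klra5 was not tested. Klrb1a was found in conventional dendritic-like cells of the perfused livers, at 173 CPM in NEVLPcty (165 to 182) and 234 in NEVLP2 (225 to 244), against 18.6 in CS and 21.7 in naive. These conventional dendritic-like cells numbered 499, 466, 77 and 74 in NEVLPcty, NEVLP2, CS and naive, with median UMIs of 19252, 21500, 10360 and 731.5. Plasmacytoid dendritic-like cells held Klrb1a at 109 CPM in NEVLPcty (87.7 to 135), 133 in NEVLP2 (122 to 144), 40.6 in CS and 24.0 in naive, and Kupffer-like cells at 50.4, 43.8, 10.3 and 28.9 CPM. In all 3 cell types the perfused livers stood above CS and naive. Cells of clusters without a name went the other way, with Klrb1a at 3.20, 11.9, 44.0 and 57.9 CPM. Whether a class held the same kind of cell in each library was not tested. Klrb1a also stood at 392 CPM in 77 neutrophil-like cells of naive (310 to 487), against 23.4 in 204 such cells of NEVLP2. Klri2 was low in plasmacytoid dendritic-like cells, at 2.48, 6.44, 17.2 and 25.4 CPM in NEVLPcty, NEVLP2, CS and naive.

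A further 18 Klr or Ly49 symbols are in the files, of which Ly49i2, Ly49i7, Ly49si2 and Ly49si3 had no count in these cells. The 8 with the most counts were Klrd1, Klri1, Klrc3, Klrk1, Klrg1, Klrc1, Klra5 and Ly49si1. Klrd1, which encodes CD94, had the order of the Ly49 group in NK cells, with 737 CPM in NEVLPcty, 1020 in NEVLP2, 1021 in CS and 1404 in naive. Klri1, the inhibitory partner of Klre1, had 610, 824, 497 and 611 CPM, and Klrk1, which encodes the activating receptor NKG2D, had 317, 468, 228 and 232. Like Klri2, both were highest in NEVLP2. Klra5, which overlaps Ly49s7, had 22.3, 71.5, 76.2 and 27.3 CPM and, like Ly49s7, was higher in NEVLP2 and CS than in NEVLPcty and naive. Klrg1 had 136, 175, 143 and 157 CPM, Klrc3, of the NKG2 receptors that pair with CD94, had 561, 530, 361 and 368, and Klrc1, its inhibitory relative NKG2A, had 69.0, 80.8, 58.0 and 54.5. Ly49si1 had 6.37, 18.6, 16.2 and 17.9 CPM. Of the 8, Klra5 and Ly49si1 were at least 2-fold lower in NEVLPcty than in NEVLP2 (6.05% of all genes), and 0 were higher (13.8%). Klra5 and Klrk1 were at least 2-fold higher in NEVLP2 than in naive (13.8%), and 0 were lower (17.3%). For NEVLP2 over CS 1 was higher (7.63%) and 0 lower (23%), and for CS over naive 1 was higher (13.2%) and 0 lower (3%).

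Of 9 genes that carry the signals of these receptors, 2 were at least 2-fold higher in NK cells of NEVLPcty over NEVLP2, where 13.8% of all genes were, and 0 lower (6.05%). For NEVLP2 over CS 0 were higher (7.63%) and 1 lower (23%), for NEVLP2 over naive 0 were higher (13.8%) and 2 lower (17.3%), and for CS over naive 0 were higher (13.2%) and 0 lower (3%). Ptpn6, the phosphatase Shp-1 of inhibitory receptors, had 348 CPM in NEVLPcty, 108 in NEVLP2, 269 in CS and 300.4 in naive, with a log2 ratio of 1.69 for NEVLPcty over NEVLP2 (1.38 to 2.01). Inpp5d, the inositol phosphatase Ship-1, had 553, 202, 142 and 104 CPM, with 1.45 for NEVLPcty over NEVLP2 (1.22 to 1.69). Hcst, the adaptor Dap10 of NKG2D, had 630, 332, 643 and 988 CPM, with -1.58 for NEVLP2 over naive (-1.75 to -1.41). Tyrobp, the adaptor of stimulatory Ly49 receptors, differed less, at 4246, 3863, 4504 and 4663 CPM. Of 10 ligand genes, 6 had enough counts. RT1-A2, an MHC class I gene, had 587 CPM in NEVLP2, against 276 in CS and 298 in naive, and Clec2d2, of the family of NKR-P1 ligands, had 77.1, against 24.9 and 19.3. RT1-CE1 had 9 counts in NEVLP2 and 3 in naive.

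Over 42 points, each a named cell class with at least 20 cells in 1 library, the genes whose log2(CPM + 1) was most like that of the Ly49 group were Art2b (Pearson r 0.913), Dok2, AABR07027872.1, Txk, Klrd1, Gzmm, Podnl1 and Gata3 (0.877). For the Klr group they were Itm2a (0.811), Tnfrsf18, Xcl1, Cd96, Il2rb, AABR07053650.1, Il18rap and Cd226 (0.783). The points share libraries and depth, and 5600 genes were searched, so these values are a description. Art2b, the gene most like the Ly49 group across classes, was lower in Ly49-positive than in Ly49-negative NK cells, at 139 against 542 CPM in NEVLPcty, 73.5 against 204 in NEVLP2, 153 against 590 in CS and 216 against 600 in naive.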

How the data were processed

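Single-cell RNA counts of 4 libraries, 1 per group, were used as the authors deposited them: filtered matrices of UMI counts per gene and cell barcode, whole and not normalized. The authors used Cell Ranger, version 6.0.0 per the file headers and 2.1.1 per the submitters' processing notes, and the sources used here do not name the build. Libraries held 3920 to 11763 barcodes and 25609611 to 72271060 UMIs.

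From these, cells were retained from 200 detected genes and 500 UMIs upwards if no more than 20% of their counts were mitochondrial. The cells with the highest Scrublet scores were removed as doublets, at 0.8% of cells per 1000 barcodes, which took 1079 cells from NEVLPcty, 830 from NEVLP2, 933 from CS and 87 from naive. Scrublet's own threshold marked 199, 205, 339 and 6. Clusters came from log-normalised counts (2000 variable genes without any Klr or Ly49 gene, 30 components, 15 neighbours, Leiden at resolution 1, scanpy 1.11.5) and were named from marker lists. Names rebuilt in this way may differ from the study's. Counts were summed over NK or T cells of a library and divided by the sum of all UMIs. Ratios were taken for genes with at least 10 counts over both sides. For shares, each cell was thinned to 2000 UMIs. With 1 library a group no test was made, and intervals (95%) cover counting error only. The scripts were tested on simulated data.

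The genes and gene lists were chosen with earlier results of these data known. Named genes are the 9 measured receptors, the 8 further receptors with the most counts, the receptors' partners and ligands past 2-fold in NK cells, and up to 8 genes by size in each direction for Ly49-positive cells and for likeness. Tyrobp was named after its values were seen.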

Additional observations from a re-analysis of the deposited data

Results flagged for a closer look

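In 6 comparisons a receptor lay on opposite sides of 0 in NK cells and in T cells, with both intervals apart from 0. Ratios of opposite sign where an interval held 0 are not listed. The difference between the cell types was not tested, and each side has 1 library per group. Ly49s6 for NEVLP2 over CS had a log2 ratio of -0.47 in NK cells and 1.45 in T cells, and for NEVLP2 over naive -0.89 in NK cells and 0.49 in T cells. Ly49s7 for NEVLP2 over naive had 0.65 in NK cells and -1.16 in T cells, and for CS over naive 0.51 in NK cells and -5.15 in T cells. The T cell values of Ly49s7 rest on 1 count in CS and on a naive library where 1 cell held 50 of 92 counts. Its NK cell values are those of gated cells, and over all NK-like cells the intervals of its level in NEVLP2, CS and naive overlapped. Klrb1a for NEVLP2 over CS had -0.10 in NK cells and 0.80 in T cells, and for NEVLP2 over naive -0.15 in NK cells and 0.27 in T cells. In T cells of NEVLP2, 61.8% of cells lay in the T-like cluster, and 56.6% of the Klrb1a counts did.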

How the results depend on the processing

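No paired analysis was possible because each group has 1 library and no replicate. Values below are log2 ratios. With every deposited barcode, or a mitochondrial limit of 10%, all 24 values of the Ly49 and Klr groups moved by less than their interval. In NK cells, the Ly49 group stayed lower in NEVLPcty than in NEVLP2 and lower in NEVLP2 and CS than in naive under every alternative run, while comparisons of T cells depended on how T cells were taken. The cause of the changes below was not tested.

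With whole NK-like and T-like clusters in place of the gates, the Klr group for CS over naive was -0.091 in NK and -0.36 in T cells, for NEVLP2 over naive -0.10 in NK cells, and for NK over T 4.61 in NEVLPcty and 4.12 in NEVLP2. It turned to -0.034 for NEVLP2 over CS in T cells. The Ly49 group in T cells was -1.33 for NEVLPcty over NEVLP2, -0.092 for NEVLP2 over naive and -0.57 for CS over naive, and for NK over T 0.90 in NEVLPcty and 1.37 in naive. Single genes that turned were Klrb1a for CS over naive in T cells (0.075) and for NEVLP2 over naive in NK cells (0.0075), and Ly49i4 for NK over T in NEVLP2 (1.42). Gated cells inside those clusters, an alternative chosen after seeing the data, gave the Klr group -0.14 in NK and -0.34 in T cells for CS over naive, -0.18 for NEVLP2 over naive in NK cells, -0.023 for NEVLP2 over CS in T cells, and 4.56, 4.11 and 3.93 for NK over T in NEVLPcty, NEVLP2 and naive. They gave the Ly49 group in T cells -1.29 for NEVLPcty over NEVLP2, -0.092 for NEVLP2 over naive and -0.56 for CS over naive, 0.34 for NK over T in NEVLPcty, and Klrb1a 0.12 for CS over naive in T cells. Stricter gates gave the Klr group in T cells -0.15 for NEVLPcty over NEVLP2, -0.047 for NEVLP2 over CS and -0.50 for CS over naive, and 4.22 and 3.95 for NK over T in NEVLP2 and naive. They gave the Ly49 group in T cells -0.18 for NEVLP2 over naive and -0.73 for CS over naive, and Ly49s7 0.40 for NEVLP2 over naive.

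With each cell weighted equally, the Klr group in NK cells was -0.018 for NEVLPcty over NEVLP2, -0.16 for NEVLP2 over CS and -0.44 for NEVLP2 over naive. In T cells it was 0.88 for NEVLP2 over CS and turned to 0.15 for NEVLP2 over naive, and NK over T was 3.87, 3.42 and 4.01 in NEVLPcty, NEVLP2 and naive. The Ly49 group was -1.07 for NEVLP2 over naive and -0.88 for CS over naive in NK cells, 1.18 for NEVLP2 over CS and 0.22 for NEVLP2 over naive in T cells, and 0.058 and 1.35 for NK over T in NEVLP2 and naive. Klra22 turned to 0.23 for NEVLPcty over NEVLP2 in NK cells, where NEVLPcty has 1 count, and Ly49s7 to 0.059 for NEVLP2 over naive in T cells. With cells thinned to 2000 UMIs, the Klr group was -0.13 in NK and 1.00 in T cells for NEVLP2 over CS, 0.27 for NEVLP2 over naive in T cells, and 3.50, 3.31 and 3.93 for NK over T in NEVLPcty, NEVLP2 and naive. The Ly49 group in T cells was -0.99 for NEVLPcty over NEVLP2, 1.41 for NEVLP2 over CS and 0.20 for NEVLP2 over naive, with 0.26 for NK over T in NEVLP2, and Ly49s7 for NEVLP2 over naive was 0.050.

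Median-of-ratios size factors gave the Klr group in NK cells -0.39 for NEVLPcty over NEVLP2, 0.23 for NEVLP2 over CS and -0.45 for CS over naive, with -1.09 for CS over naive in T cells and 3.46 for NK over T in naive. They gave the Ly49 group 0.13 for NEVLP2 over CS in NK cells, -0.79 and -1.23 for CS over naive in NK and T cells and 0.88 for NK over T in naive, and Klrb1a 0.15 for NEVLP2 over CS in NK cells. Without doublet removal, the Klr group in NK cells was -0.41 for NEVLP2 over naive and -0.42 for CS over naive, and the Ly49 group -0.89 and -0.83. With Scrublet's own threshold the Klr group was -0.37 and -0.36, and the Ly49 group was -0.76 for CS over naive. With all UMIs in place of thinned ones, 64 genes were lower in Ly49-positive than in Ly49-negative NK cells in all 4 libraries, against 9. Depth limits Klra22 and Ly49i4 in NK cells of NEVLPcty, with 1 and 4 counts.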
